A study of Caenorhabditis elegans with 2 samples.

Results

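The genes examined here encode the translation elongation factors and eIF5A of Caenorhabditis elegans: iff-1, iff-2, eef-1A.1, eef-1A.2, eef-1B.1, eef-1B.2, eef-1G and eef-2. They are 8 of 19973 nuclear protein-coding genes. A candidate region was given to a gene where its summit fell in the gene body or in the 2000 bp before the annotated 5' end. The question was where the transcription factor ETS-4 was found at these genes. All animals were young adults (73 h after synchronisation as starved L1 larvae), of mixed sex, strain RAF1713. This strain carries rrrSi400, an inserted copy of ets-4 on chromosome II fused to GFP, under the promoter and 3' UTR of ets-4 itself, with an unc-119(+) rescue marker, in an unc-119(ed3) background. The labels describe the tag both as eGFP and as GFP-FLAG. Chromatin from whole animals was precipitated with an anti-GFP antibody and sequenced (ChIP-seq) in 2 biological replicates, which make up the only group. The labels do not say whether the endogenous ets-4 gene is intact, and no mock or tag-free precipitate was analysed here.

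ETS-4 belongs to the ETS family of DNA-binding proteins, which recognise a GGAA core, and is known in the worm for roles in fat metabolism and lifespan. Elongation factors carry the ribosome along the mRNA. eEF1A brings aminoacyl-tRNA to the ribosome with GTP, the eEF1B subunits recharge eEF1A with GTP, and eEF2 moves the ribosome forward by a codon. eIF5A, the only protein family known to carry the amino acid hypusine, helps the ribosome through stretches that are slow to form peptide bonds. These proteins are made in most growing cells. Chromatin of whole animals mixes many cell types, and the lists do not give the cells in which ETS-4 was found at a gene.

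A final list held 1102 regions and was deposited as thresholded on the irreproducible discovery rate (its members are called IDR regions in what follows). They were the 1102 strongest of 30000 candidates called on both replicates pooled, and each replicate also had a list of 30000 candidates. The IDR list thus equals a cut on pooled signal, and an IDR region need not rank high in each replicate. Of all IDR regions 52.4% overlapped the 1102 strongest regions of both replicates. Signal is the peak caller's own value and is compared only within a list, and rank 1 is the strongest region of a list. The reads behind a region are not given, so no counting error can be attached to a signal, and the 2 replicate values are the only measure of spread. The genes were selected on their function and on the presence and signal of these regions, so their values are given as a description without a test.

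IDR regions were present at 4 of the 8 genes, iff-2, eef-1B.1, eef-1A.2 and eef-1G, and numbered 5 because eef-1B.1 had 2. Among all protein-coding genes 5.32% had an IDR region by the same rule, and 0.541% had at least 2. Both regions of eef-1B.1 also fell in the windows of its neighbours aco-2 and F54H12.5. The upstream region was nearer to the 5' end of aco-2 (388 bp) than to that of eef-1B.1 (719 bp). Longer genes offer a longer window. Among the 14549 genes whose window was no longer than the 5422 bp of eef-2, the longest of the members, the share was 4.03%. No lower limit was set, so these genes were not matched to the members in window length. In each of the 3 pairs of related genes 1 gene held an IDR region and the other did not: iff-2 and not iff-1, eef-1A.2 and not eef-1A.1, eef-1B.1 and not eef-1B.2. All 8 genes had at least 1 region in the pooled list, as did 69.3% of all protein-coding genes. The weakest member inside the IDR list was eef-1G (signal 83.4, rank 979), the strongest outside it was eef-2 (signal 63.6, rank 2093), and the lowest signal of the whole IDR list was 79.4.

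The reference sequence at the summit of each IDR region is shown first, because the pooled list places its summit in these bases; across the pooled and replicate lists the summits of a site spread over 35 to 82 bp, so a replicate may peak outside the bases shown. Each line holds 30 bases of build ce11, 15 before the summit to 14 after it, read in the direction of the gene. Capitals would mark the ETS core GGAA on either strand, and none of the 5 windows contained it. The share of all summits was not counted for this 30-base window. In the wider window of 25 bp to each side, 32.6% of all IDR summits and 42.3% of the other pooled summits held GGAA. The absence from 5 short windows therefore sets these sites apart from no others.
iff-2, chrII:8561414-8561443, minus strand: cacgcggttggttattgcctgcgtagcgac
eef-1B.1 near the 5' end, chrIII:7973378-7973407, minus strand: cattgaatgatcactggcgctatgctcgtt
eef-1B.1 upstream, chrIII:7974091-7974120, minus strand: tttgggtgagctttcactattcgagagtta
eef-1A.2, chrX:7823214-7823243, plus strand: aattacgtatctgctcgctcaaacacacgc
eef-1G, chrV:10965705-10965734, plus strand: tctgccaggggcacatacgcagacttttca
The strongest pooled candidates of the 4 genes without an IDR region were read in the same way. The core was in the 30 bases of iff-1 and not in those of eef-1A.1 or eef-1B.2, and eef-2, whose sequence is not shown, had no core within 50 bp of the summit.
iff-1, chrIII:9748948-9748977, minus strand: agagaaattacgaatattGGAAtcactgca
eef-1A.1, chrIII:6972767-6972796, minus strand: gctgtggcccaaagatgacttggagaagga
eef-1B.2, chrIV:15039038-15039067, plus strand: ggtcgttgaagagcgccttgctgcctacgc

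The eIF5A genes gave the widest difference in pooled signal between related genes. iff-2, the eIF5A gene used mainly in somatic tissue, lies on the minus strand of chromosome II at 8559375 to 8561367 and has 2 annotated transcripts. Its IDR region at 8561358 to 8561517 had a signal of 237.0 and rank 16 of the 30000 pooled candidates. In replicate 1 the region at this place had signal 105.7 and rank 15, and in replicate 2 signal 130.6 and rank 33. Both replicates thus put it among their 33 strongest regions. The summit was 61 bp upstream of the annotated 5' end in the pooled list, 96 bp in replicate 1 and 76 bp in replicate 2, and the pooled summit was 473 bp before the coding start. At 160 bp the pooled region was narrower than the usual 370 bp, and 3.36% of IDR regions were as narrow or narrower. Ordered by the best region in its window, iff-2 was number 18 of the 19973 genes in the pooled list, number 19 in replicate 1 and number 35 in replicate 2. The same summit lay 874 bp upstream of the divergent gene F54C9.14, so the region falls in the window of both. Within the body of iff-2 the pooled list had 1 further candidate, in an intron at 1300 bp (signal 23.1, rank 27239). No candidate overlapped the snoRNA gene F54C9.12 in the body.

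iff-1, the other eIF5A gene, is known for its need in germ cell proliferation. It is at 9745862 to 9747193 on the minus strand of chromosome III. Its 3 pooled candidates had signals from 22.1 to 41.7. The strongest, at 9748777 to 9749146, ranked 7222 in the pooled list, with ranks 4055 and 4306 for the overlapping regions of replicates 1 and 2. Its summit was 1769 bp upstream of iff-1 but only 28 bp inside T05G5.4, in a coding exon. Near the 5' end of iff-1 itself, replicate 1 had a candidate at -61 bp (signal 13.4, rank 23534), and neither replicate 2 nor the pooled list had one within 500 bp. The coding sequences of iff-1 and iff-2 were 78.7% identical over 483 aligned bases and had no 36-base word in common, and no 36-base word of the iff-2 IDR region occurred elsewhere in the genome.

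**Figure D1:**
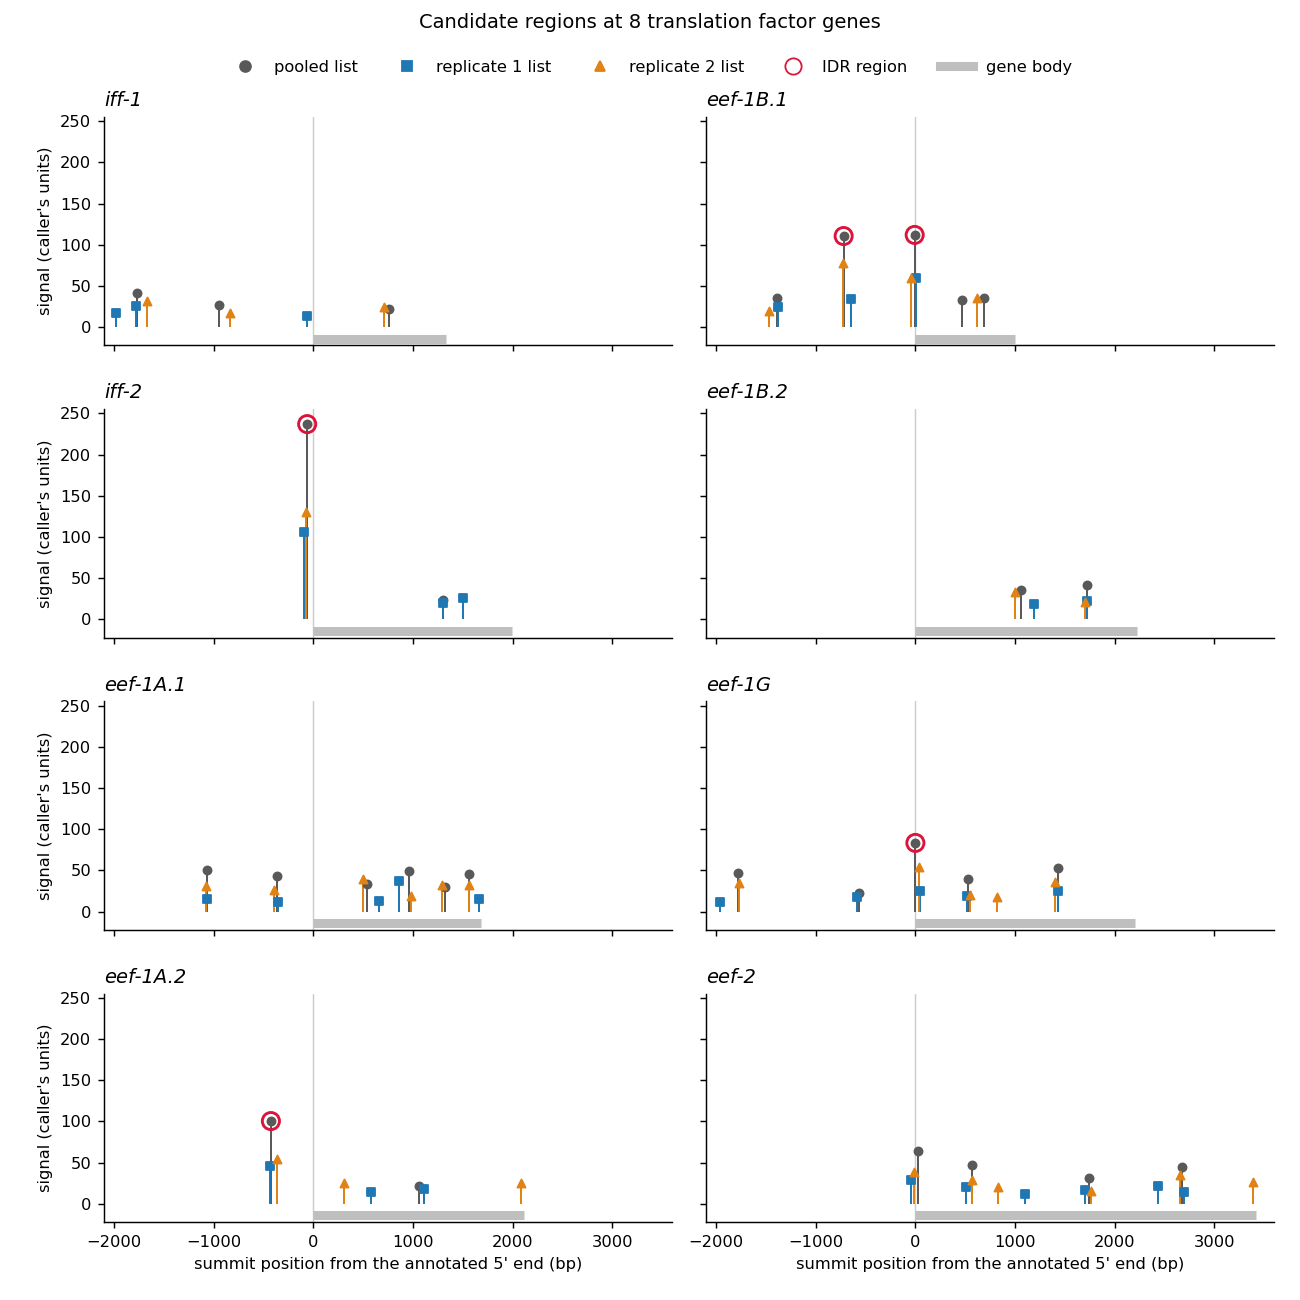
Signal of every candidate region (caller's units, vertical axis) against the distance of its summit from the annotated 5' end in bp (horizontal axis) for each gene, with the pooled list in grey, replicate 1 in blue, replicate 2 in orange, IDR regions circled in red and the gene body as a grey bar. Signals are not scaled between lists, so heights are comparable within 1 colour only; the circled regions of iff-2, eef-1B.1, eef-1A.2 and eef-1G lie at or before the 5' end, and those of iff-2 stand highest in every list.

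The exchange factor of eEF1A has several subunits, and eef-1B.1 had the most IDR regions of the members. The gene is on the minus strand of chromosome III at 7972382 to 7973386 and its 5' end faces that of aco-2, which encodes mitochondrial aconitase, on the other strand. The region at 7973207 to 7973576 had its summit 6 bp before the 5' end of eef-1B.1, with signal 111.9 and rank 399. At this site replicate 1 gave signal 59.1 and rank 218, and replicate 2 signal 59.1 and rank 681. The second region, at 7973920 to 7974289, had signal 110.6 and rank 423. Its summit was 719 bp upstream of eef-1B.1 and 388 bp inside aco-2, in an intron, so aco-2 has the nearer 5' end. There replicate 1 gave signal 34.2 and rank 1454, and replicate 2 signal 78.2 and rank 256. The replicates thus ordered the 2 sites oppositely: the site at the 5' end was the stronger in replicate 1 and the upstream site in replicate 2. Both summits also fell within the 2000 bp before F54H12.5. The region at the 5' end overlapped the ncRNA gene F54H12.9. The other 3 pooled candidates of eef-1B.1 had signals from 32.4 to 35.5.

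eef-1B.2, a further exchange factor subunit gene, at 15037331 to 15039551 on the plus strand of chromosome IV, had 2 pooled candidates. Both were in coding exons, with signal 35.5 at 1062 bp and signal 41.5 at 1722 bp from the 5' end. The stronger had rank 7319, and its overlapping regions had ranks 6803 in replicate 1 and 13528 in replicate 2. Replicate 2 put the other site first, with signal 32.9 and rank 3922 at 1005 bp, whereas the region of replicate 1 at that site, at 1196 bp, had signal 18.1 and rank 11817. The replicates thus ordered the 2 sites of eef-1B.2 oppositely, as they did those of eef-1B.1. In none of the lists did a summit fall in the 2000 bp upstream of eef-1B.2. The 5' end of the next gene, hrpu-1, was nearer to the stronger summit, 563 bp away.

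eef-1G encodes the gamma subunit of the same complex and is on the plus strand of chromosome V at 10965719 to 10967922. Its IDR region at 10965535 to 10965904 had the summit 1 bp inside the 5' end, in the 5' UTR, 105 bp before the nearest coding start. The pooled signal was 83.4. Replicate 2 gave signal 53.8 and rank 907, whereas replicate 1 gave signal 25.3 and rank 4292, outside its 1102 strongest. This IDR call therefore had high rank in 1 replicate only. The summit was also 181 bp upstream of ctf-4, a replication gene read in the opposite direction. A weaker candidate in a coding exon, 1434 bp from the 5' end, had signal 52.4 and rank 3659, with ranks 4807 and 3116 for the overlapping regions of replicates 1 and 2. It lay between the snoRNA genes F17C11.15 and F17C11.14 without overlapping either.

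The genes for eEF1A formed the most similar pair. The coding sequences of eef-1A.1 and eef-1A.2 were 93.95% identical over 1389 bases, with a longest shared run of 53 bases, and 6.94% of the 36-base words of eef-1A.1 occurred in eef-1A.2. Values inside these gene bodies are therefore uncertain between the copies, and the read length is not given. In the 500 bp upstream the longest shared run was 8 bases. eef-1A.2 is on the plus strand of the X chromosome at 7823654 to 7825769. Its IDR region at 7823044 to 7823413 had the summit 425 bp upstream (signal 100.5, rank 586), in sequence without a 36-base word repeated elsewhere. Replicate 1 gave signal 46.2 and rank 506, and replicate 2 signal 54.7 and rank 857, so both placed it among their 1102 strongest. No other protein-coding gene had this summit in its window, and the region overlapped the ncRNA gene R03G5.8. The only other pooled candidate of eef-1A.2, in a coding exon at 1064 bp, had signal 21.9 and rank 29770.

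eef-1A.1, also called eft-3, whose promoter is widely used to express transgenes in all somatic tissues, is on the minus strand of chromosome III at 6970026 to 6971712. It had 6 pooled candidates, with signals from 30.2 to 50.9, more than any other member. The strongest, at 6972596 to 6972965, had rank 3973 and lay 1069 bp upstream of eef-1A.1, but inside a coding exon of rfc-4, a replication factor gene, 528 bp from its 5' end. Its rank was 4761 in replicate 2 and 19146 in replicate 1. The candidate nearest to the 5' end of eef-1A.1, at -360 bp, had signal 43.4 and rank 6398 and overlapped the miRNA gene cel-mir-5549. The other 4 candidates were in coding exons, and between 3.88% and 12.5% of their 36-base words occurred elsewhere in the genome. The highest rank of eef-1A.1 in any list was 1149, for a region in replicate 1 with its summit 857 bp into the gene (signal 36.7). The strongest region of replicate 2 was at 502 bp (signal 39.3, rank 2297).

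eef-2, the gene for the translocase eEF2, is on the plus strand of chromosome I at 9163531 to 9166952. Its strongest region, at 9163374 to 9163743, had the summit 28 bp inside the 5' end, in the 5' UTR. The pooled signal was 63.6 and the rank 2093. Replicate 1 gave signal 29.3 and rank 2538, and replicate 2 signal 39.0 and rank 2345. The 2 replicates ranked this region close to each other. In both it was outside the replicate's strongest regions, taken as many as the IDR list holds. The other 3 pooled candidates were in coding exons at 574, 1739 and 2681 bp, with signals from 31.8 to 47.6. The 5' end of clsp-1, on the opposite strand, was 293 bp from the summit.

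The 5 IDR regions were compared as a set with the replicates' own lists. All 5 overlapped the 1102 strongest regions of replicate 2, as did 80.5% of all IDR regions. Of the 5, 3 overlapped those of replicate 1, against 67.0% of all IDR regions, and the same 3 were in the strongest regions of both (52.4% of all). The exceptions were the upstream site of eef-1B.1 and the site of eef-1G. Summit positions at the 5 sites differed by 35 to 82 bp between the 3 lists. When the top 1102 of replicate 2 took the place of the IDR list, the same 4 genes held a region (5.46% of all genes did), and with the top 1102 of replicate 1, 3 genes did (5.56% of all), without eef-1G.

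**Figure D2:**
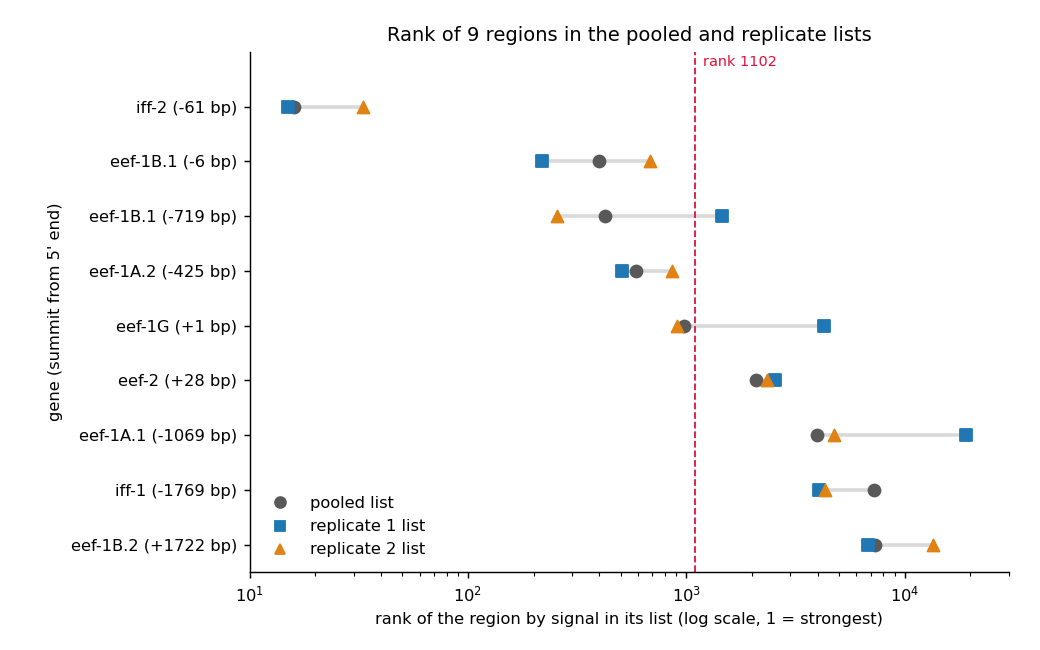
Rank by signal (log scale, 1 is the strongest) of the 5 IDR regions and of the strongest pooled candidate of each gene without one, in the pooled list (grey circles), replicate 1 (blue squares) and replicate 2 (orange triangles), each replicate by its highest-ranked region overlapping the pooled one. The dashed line is rank 1102, the length of the IDR list; the 3 ranks of iff-2 lie between 15 and 33, while eef-1G and the upstream site of eef-1B.1 cross the line in replicate 1.

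Of the 5 summits, 4 were upstream and 1 in the 5' UTR, and 4 were within 500 bp of the 5' end of their gene. With the window cut to a promoter of 1000 bp before and 200 bp after the first base, 4 of 8 genes still had an IDR region, where 2.59% of protein-coding genes did. Of the 29 pooled candidates at the 8 genes, 11 were upstream, 2 in a 5' UTR, 14 in coding exons and 2 in introns, and none of the 14 in coding exons was an IDR region. The places of all IDR and pooled regions were not counted. These counts by place therefore describe the 8 genes alone and show no difference from other genes. The summit fell in the window of at least 2 protein-coding genes for 4 of the 5 IDR regions, all but that of eef-1A.2. Over all IDR regions this share was 22.5%, but 201 of those had their summit in no gene's window. A region between 2 facing genes cannot be given to either from these lists.

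Sequences known for ETS and other factors were searched on both strands within 50 bp of each summit. The ETS core GGAA was present at 1 of the 5 member IDR regions, eef-1G, centred 24.5 bp downstream of the summit. It was present at 55.5% of all IDR summits and at 66.1% of the 28898 other pooled summits. Within 100 bp it was at 4 of the 5 and at 81.5% of all IDR summits, and within 25 bp at 0 of the 5 and at 32.6% of all. The eef-1G match is read on the strand opposite to the gene, with the core in capitals.
eef-1G, chrV:10965730-10965759, minus strand: ggtgttcttcagaGGAAaaatacactgaaa
Longer ETS forms, most of which contain the core, were at none of the 5. Of all IDR summits, CGGAA was at 15.4%, CCGGAA at 3.72%, CCGGAT at 1.63%, CGGAAG at 2.63%, AGGAAG at 4.81% and GGAAGT at 3.54%. The GATA-factor sequence TGATAA was at none of the 5 but at 27.0% of all IDR summits and 9.83% of the other pooled summits. AGATAA (6.26% of all IDR summits), the E box CACGTG (5.35%) and the TATA box TATAAA (5.35%) were also at none of the 5. The repeat GAGAGA was at 2, eef-1A.2 and the upstream site of eef-1B.1, and at 21.4% of all IDR summits. A missing match says only that these letters were not in the window. Among the 4 strongest candidates of genes without an IDR region, those of iff-1, eef-1A.1 and eef-1B.2 held GGAA and that of eef-2 did not. Of the other words, AGGAAG was at the eef-1B.2 candidate, and TGATAA and TATAAA were at that of eef-1A.1.

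The wider promoter, 250 bp before to 49 bp after the first base of the gene, held GGAA in all 8 members, as 95.1% of protein-coding promoters did. CGGAA was in the promoters of iff-1, iff-2, eef-1B.1 and eef-1B.2 and in 39.8% of all promoters. TGATAA was in those of iff-1, eef-1A.2, eef-1B.1 and eef-2 and in 30.2% of all. The GC content of the 101 bp around the summit was 58.4% at iff-2, 55.4% at the 5' end of eef-1B.1, 40.6% at its upstream site, 44.6% at eef-1A.2 and 45.5% at eef-1G. The middle of all IDR summits was 46.5%, with quartiles of 40.6% and 53.5%. None of the 5 was below the lower quartile of the whole list, and iff-2 and the 5' end of eef-1B.1 were above its upper quartile.

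Other genes of translation were counted by the same rule. Of 71 genes in 6 lists other than the members and the ribosomal proteins, 3 had an IDR region (4.23%), where 5.32% of all genes did. With the 1102 strongest regions of a single replicate in place of the IDR list the count was 5 in each. drr-2, pab-2 and fars-1 were among them both times, joined by cars-1 and eif-6 in replicate 2 and by kars-1 and pab-1 in replicate 1. The 3 genes with an IDR region were drr-2, which encodes an eIF4H-like initiation factor (III, 13643551 to 13643920, summit at -166 bp, signal 207.7, rank 37, replicate ranks 32 and 60), pab-2, a poly(A)-binding protein gene with 3 regions, and fars-1, a phenylalanyl-tRNA synthetase gene. The strongest pab-2 region lay at -80 bp (signal 100.3, rank 591). The fars-1 region lay in an intron and nearer to the 5' end of mrpl-23 (signal 102.4, rank 553). The genes were 2 of 35 for initiation and poly(A)-binding factors and 1 of 20 for cytosolic aminoacyl-tRNA synthetases. Of the 2 genes for making hypusine on eIF5A, 7 for regulation of elongation and ribosome rescue, 3 for termination and recycling, and 4 for mitochondrial elongation, none had an IDR region. 3 of these are named for their function, after their values were seen. dhps-1, which encodes the deoxyhypusine synthase, had no candidate in the pooled list or in replicate 2, and a best rank of 9718 in replicate 1. dohh-1, which encodes the hydroxylase that completes hypusine, had a best pooled rank of 6509. efk-1, which encodes the kinase that inhibits eEF2, had a best pooled rank of 1655. In the same list of 7 genes gcn-1, named for its rank, came nearest to the IDR list, with a best pooled rank of 1115.

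Cytosolic ribosomal protein genes had an IDR region in 15 of 82 cases (18.3%). The median best pooled rank was 1536 over the 8 elongation and eIF5A genes, 3036 over the 78 ribosomal protein genes with a candidate and 9463 over the 13850 protein-coding genes with one. The 8 genes were chosen with the presence and signal of their regions known. Their median therefore cannot be read as a difference from the other sets. Only rpl-3 (signal 346.1, rank 5) and rpl-35 (signal 237.8, rank 15) among the ribosomal protein genes had a stronger region than iff-2. The remaining ribosomal protein genes with an IDR region had best signals from 83.1 at rpl-14 to 200.0 at rpl-20.

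**Figure D3:**
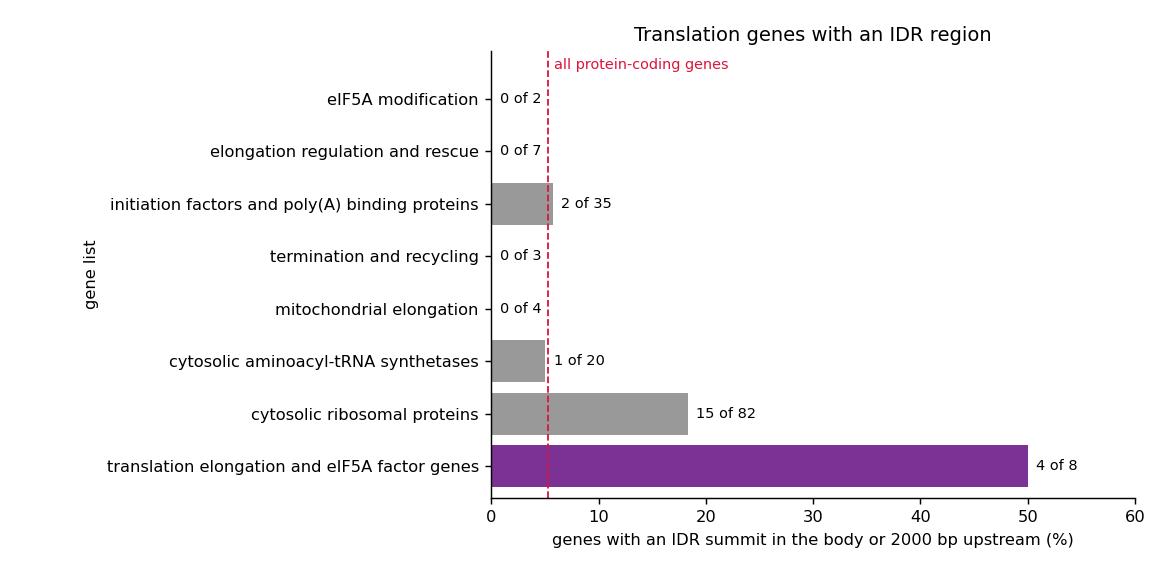
Percentage of genes in each translation list with an IDR summit in the gene body or the 2000 bp upstream (horizontal axis), with counts beside the bars and the share over all protein-coding genes (5.32%) as a dashed line. The elongation and eIF5A genes, chosen with these regions known, had 4 of 8, ribosomal proteins 15 of 82, and the other lists from 0 to 2 genes each.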

How the data were processed

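The 4 ChIP-seq region lists of the 2 replicates were taken unchanged, as narrowPeak text on build ce11. Per the deposited text files, a replicate's candidates (peaks and background) were called on its alignments against a control file, the pooled candidates on the alignments of both replicates against the same control, and the IDR list was derived from these lists. The signal of a region is the deposited value of the caller. Not given in the sources used here are the aligner, the caller, the scaling of the signal, the IDR threshold and the read number. The -log10 q value, also as deposited, had a ceiling shared by 1393 pooled regions and served only as an alternative threshold.

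Summits were placed on Ensembl release 115 (WBcel235, the assembly of ce11), 1-based, and sequences were read from the RefSeq copy of that assembly. Negative distances are upstream of the gene's first base. Worm transcripts are often trans-spliced, so this base need not be where transcription starts. Replicate numbers are those of the labels. The members and gene lists were chosen with earlier results of these data known, so no test was made. Named genes were all members, every listed translation gene with an IDR region (ribosomal proteins by range), and neighbours and non-coding genes at the named regions. Genes added by a single replicate's list were named after their values were seen, and the sequence words searched were also chosen after the lists were opened. Listed symbols without a match were eif-3.M, eif-5, etf-1, gfm-2 and vars-2. Alternatives were other windows and thresholds, each replicate alone, and other windows around summits. The assignment and the sequence search were checked on simulated data. Python 3.11.15 with numpy 2.4.6, pandas 2.3.3, biopython 1.88 and matplotlib 3.10.9 was used.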

Additional observations from a re-analysis of the deposited data

How the results depend on the processing

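The same 4 member genes had a region under 7 alternatives that kept both replicates, while the share of all protein-coding genes with a region moved around the 5.32% of the main rule. This share was 2.59% with promoters of 1000 bp upstream to 200 bp downstream, 1.93% with 500 bp to 100 bp, 8.17% with 5000 bp upstream and 4.94% with the nearest 5' end alone. It was 6.70% with all pooled regions at the q ceiling, 5.85% with any overlap of 1 bp and 4.59% without regions overlapping tRNA, snoRNA, snRNA, rRNA or miRNA genes. Genes of the class ncRNA were not part of that last alternative, so the regions over F54H12.9 and R03G5.8 were kept. With the 551 strongest IDR regions the member count was 2, iff-2 and eef-1B.1, and the share of all genes 2.88%. Leaving out replicate 1 gave the same 4 members, beside 5.46% of all genes. Leaving out replicate 2 gave 3 members, without eef-1G, beside 5.56% of all genes. The best rank of a gene, taken from a single replicate, ran from 4055 to 4306 for iff-1, 15 to 33 for iff-2, 1149 to 2297 for eef-1A.1, 506 to 857 for eef-1A.2, 218 to 256 for eef-1B.1, 3922 to 6803 for eef-1B.2, 907 to 4292 for eef-1G and 2345 to 2538 for eef-2. For eef-1A.1, eef-1B.1 and eef-1B.2 the 2 replicates' best regions were at different sites, so these ranges do not compare 1 site; at the 5' end of eef-1B.1 the ranks were 218 and 681, and at its upstream site 1454 and 256. Among the 5 IDR summits, GGAA was at 4 within 100 bp and 0 within 25 bp, CGGAA at 2 within 100 bp, and GAGAGA at 0 within 25 bp; the low count of GGAA thus depends on the window. The 6 other translation lists had 5 genes with either replicate alone (5 to 5), not all the same genes, and aminoacyl-tRNA synthetases had 2 to 2 with either replicate alone and 0 with promoters of 1000 bp upstream to 200 bp downstream. The cause of these shifts was not tested. No paired analysis was possible because there was 1 group. The depth behind a region is unknown, which limits the precision of every rank.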
